A study of Mus musculus with 4 samples.

Results

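The 9 enzymes of the pentose phosphate pathway and of the step that follows it were examined on 4 Agilent arrays of mouse bone marrow progenitors. They are G6pdx, Pgls, Pgd, Rpia, Rpe, Tkt, Taldo1, Prps1 and Prps2. The members were the probes of the authors' deposited signal table that carry these gene symbols, and each gene had 1 probe with 1 spot, so 9 of 55681 probes and 9 of 24277 genes were described. The pathway was selected on signals of these same arrays, being higher in SFRP5 LSK than in WT LSK, so the genotype comparison in LSK below is a description of values behind the choice and supports nothing by itself.

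The 4 groups were CLP and LSK from SFRP5-transgenic mice and CLP and LSK from their wild-type (WT) littermates, all from freshly isolated adult bone marrow, with 1 array for each group. LSK cells are the lineage-negative marrow cells with high c-kit and with Sca-1 on their surface, a population that holds blood stem cells with their earliest multipotent descendants. The CLP sort took lineage-negative cells low in c-kit and Sca-1 that carry IL7Rα, to enrich for common lymphoid progenitors. SFRP5 is a secreted protein that binds Wnt ligands, and the series set out to find genes that its expression affects. The labels, headers and design text used here do not give the promoter of the transgene, how many mice went into a sample, their sex or whether they were pooled. With 1 array for each group no difference could be checked against replicates and none was tested, and "higher" and "lower" describe these 4 arrays.

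The pentose phosphate pathway branches from glycolysis at glucose 6-phosphate. Its oxidative arm makes NADPH, which cells use to keep glutathione and thioredoxin reduced and to build lipids, and its non-oxidative arm exchanges sugar phosphates between glycolysis and ribose 5-phosphate. Ribose 5-phosphate is the sugar of nucleotides, and PRPP synthetases activate it for purine, pyrimidine and NAD synthesis. Red cells and neutrophils depend on the oxidative arm, for protection against oxidants and for the respiratory burst.

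Levels are given as log2 of the processed signal relative to the 75th percentile of the same array, so that 0 is that percentile. Signals of different probes are not set against each other, except that summed relative signals of marker lists add them up. Those sums are taken on signals before the log2 step, so the brightest probes of a list weigh most. The share of probes well above background, by the scanner software's flag, was 66.1% in SFRP5 CLP, 65.7% in WT CLP, 65.3% in SFRP5 LSK and 70.1% in WT LSK. All 9 members were well above background on all 4 arrays, as were 62.5% of all genes, none had a saturated or outlying spot, and the authors' evaluation code was 2 for each of them on each array. Repeat spots of other probes within 1 array had a median SD from 0.059 to 0.071 log2 at or above the 75th percentile and from 0.089 to 0.104 up to 2 log2 units below it. The error of a difference between 2 arrays taken from these SDs was 0.09 to 0.14 for the members, and it covers neither mice, sorting nor amplification. A difference over 2 such errors is called beyond the spot error below.

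The promoters shown first are those of the 4 members at least 2-fold higher in CLP than in LSK in both genotypes, as described further on. Under other scalings that set was smaller or larger, as given there. Each is the RefSeq window of 300 bases on GRCm38.p6, 250 before the annotated start and 50 after it. Capitals mark a match to the core of the antioxidant response element, TGACNNNGC on either strand, the sequence that the oxidant-responsive factor NRF2 (Nfe2l2) binds.
G6pdx, chrX:74428831-74429130, minus strand: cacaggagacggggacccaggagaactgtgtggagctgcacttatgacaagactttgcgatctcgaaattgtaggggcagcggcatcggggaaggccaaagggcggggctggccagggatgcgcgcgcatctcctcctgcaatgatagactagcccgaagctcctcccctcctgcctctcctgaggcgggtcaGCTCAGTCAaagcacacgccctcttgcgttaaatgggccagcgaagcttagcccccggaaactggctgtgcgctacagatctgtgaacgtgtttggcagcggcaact
Pgd, chr4:149166656-149166955, minus strand: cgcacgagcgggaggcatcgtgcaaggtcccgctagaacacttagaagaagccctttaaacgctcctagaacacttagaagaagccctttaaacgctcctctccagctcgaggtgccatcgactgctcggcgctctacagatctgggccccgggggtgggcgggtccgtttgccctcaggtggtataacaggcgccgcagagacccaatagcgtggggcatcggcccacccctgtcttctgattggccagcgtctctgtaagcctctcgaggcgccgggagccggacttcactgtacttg
Rpia, chr6:70792126-70792425, minus strand: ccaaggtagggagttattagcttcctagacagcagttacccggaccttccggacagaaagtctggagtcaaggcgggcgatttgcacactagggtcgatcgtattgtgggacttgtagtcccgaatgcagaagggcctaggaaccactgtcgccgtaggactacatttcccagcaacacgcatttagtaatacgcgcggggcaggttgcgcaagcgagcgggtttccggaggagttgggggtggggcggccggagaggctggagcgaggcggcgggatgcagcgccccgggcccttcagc
Taldo1, chr7:141391910-141392209, plus strand: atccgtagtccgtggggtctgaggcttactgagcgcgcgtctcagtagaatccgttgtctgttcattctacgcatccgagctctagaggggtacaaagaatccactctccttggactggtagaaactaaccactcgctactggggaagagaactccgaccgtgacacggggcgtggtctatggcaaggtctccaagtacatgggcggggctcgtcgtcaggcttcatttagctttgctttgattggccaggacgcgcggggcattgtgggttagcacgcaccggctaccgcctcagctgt

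Of the 9 members, all of which had a window, G6pdx and Pgd held the core, against 14.0% of 27025 genes. In G6pdx it begins 57 bases before the start. In Pgd it lies in the window of a further annotated start, 3 bases after that start, and the window printed above has none. The E-box CACGTG, which MYC binds, was in none of the 9 members' windows and in those of 8.09% of genes. These matches describe letters in the windows and do not show binding.

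Among the NADPH-producing steps of the oxidative arm, G6pdx and Pgd were set apart by sort more than by genotype. G6pdx encodes glucose-6-phosphate dehydrogenase, the enzyme that commits glucose 6-phosphate to the pathway, and lies on the X chromosome. Its probe (A_51_P187082) stood at 2.89 in SFRP5 CLP and 2.90 in WT CLP, and at 1.70 in SFRP5 LSK and 1.60 in WT LSK. Both CLP arrays were above both LSK arrays, by 1.19 in SFRP5 (2.28-fold) and 1.29 in WT (2.45-fold). SFRP5 minus WT was 0.10 in LSK and -0.0042 in CLP, both within the spot error. Pgls encodes 6-phosphogluconolactonase, which opens the lactone made by the first step, and lies on chromosome 8. Its probe (A_66_P108815) stood at 0.69 in SFRP5 CLP and 1.37 in WT CLP, and at 0.56 in SFRP5 LSK and -0.14 in WT LSK. The WT arrays were the highest and the lowest of the 4, with the SFRP5 arrays between them. SFRP5 minus WT was 0.69 in LSK (1.62-fold higher) and -0.68 in CLP (1.61-fold lower). Pgd encodes 6-phosphogluconate dehydrogenase, which makes the pathway's further NADPH and releases ribulose 5-phosphate, and lies on chromosome 4. Its probe (A_52_P84096) stood at 2.27 in SFRP5 CLP and 2.49 in WT CLP, and at 1.22 in SFRP5 LSK and 0.70 in WT LSK. Pgd was thus higher on both CLP arrays than on both LSK arrays, by 1.04 in SFRP5 (2.06-fold) and 1.79 in WT (3.46-fold). Its genotype difference was 0.53 in LSK and -0.22 in CLP.

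The pentose isomerase and epimerase behaved unlike each other. Rpia, on chromosome 6, encodes the isomerase that turns ribulose 5-phosphate into ribose 5-phosphate. Its probe (A_66_P109395) stood at 1.29 in SFRP5 CLP and 1.5 in WT CLP, and at -0.56 in SFRP5 LSK and -0.40 in WT LSK. The gap between sorts was 1.85 in SFRP5 (3.61-fold) and 1.89 in WT (3.71-fold), and no other member had a larger one in either genotype. Among measured genes, 3.46% in SFRP5 and 4.32% in WT had a higher CLP minus LSK difference than Rpia. SFRP5 minus WT was -0.17 in LSK, within the spot error, and -0.21 in CLP. Rpe, on chromosome 1, encodes the epimerase that turns ribulose 5-phosphate into xylulose 5-phosphate. Its probe (A_55_P2024649) stood at -0.29 in SFRP5 CLP and -0.27 in WT CLP, and at -0.19 in SFRP5 LSK and -0.24 in WT LSK. All 4 values lay within the spot error of each other, the only member for which that held.

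Transketolase and transaldolase, which shuttle carbon units in the non-oxidative arm, were higher in CLP, with a narrower gap in SFRP5 than in WT. Tkt, on chromosome 14 (probe A_51_P394515), stood at 5.93 in SFRP5 CLP and 6.19 in WT CLP, and at 5.49 in SFRP5 LSK and 4.85 in WT LSK. CLP minus LSK was 0.44 in SFRP5 (1.36-fold) and 1.35 in WT (2.54-fold), and the WT LSK array was the lowest of the 4. SFRP5 minus WT was 0.64 in LSK (1.56-fold higher) and -0.26 in CLP. Taldo1, on chromosome 7 (probe A_51_P401958), stood at 4.58 in SFRP5 CLP and 4.95 in WT CLP, and at 3.34 in SFRP5 LSK and 3.11 in WT LSK. The gap between sorts was 1.23 in SFRP5 (2.35-fold) and 1.84 in WT (3.58-fold), larger than either genotype difference, which was 0.24 in LSK and -0.37 in CLP.

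The PRPP synthetase genes, both on the X chromosome, had unlike patterns. Both encode enzymes that join pyrophosphate to ribose 5-phosphate. Prps1 (probe A_55_P2001891) stood at 2.89 in SFRP5 CLP and 2.84 in WT CLP, and at 1.62 in SFRP5 LSK and 2.08 in WT LSK. Its CLP minus LSK difference was 1.27 in SFRP5 (2.40-fold) and 0.76 in WT (1.69-fold). The genotype difference was -0.46 in LSK, the only member lower there beyond the spot error, and 0.05 in CLP. Prps2 (probe A_52_P32864) stood at -0.61 in SFRP5 CLP and -0.12 in WT CLP, and at -0.23 in SFRP5 LSK and -0.72 in WT LSK. The sorts overlapped for Prps2, with CLP minus LSK at -0.37 in SFRP5 and 0.59 in WT, and SFRP5 minus WT was 0.48 in LSK and -0.49 in CLP. Prps1 has a close copy, Prps1l1, so the transcript its probe reads is less certain.

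**Figure D1:**
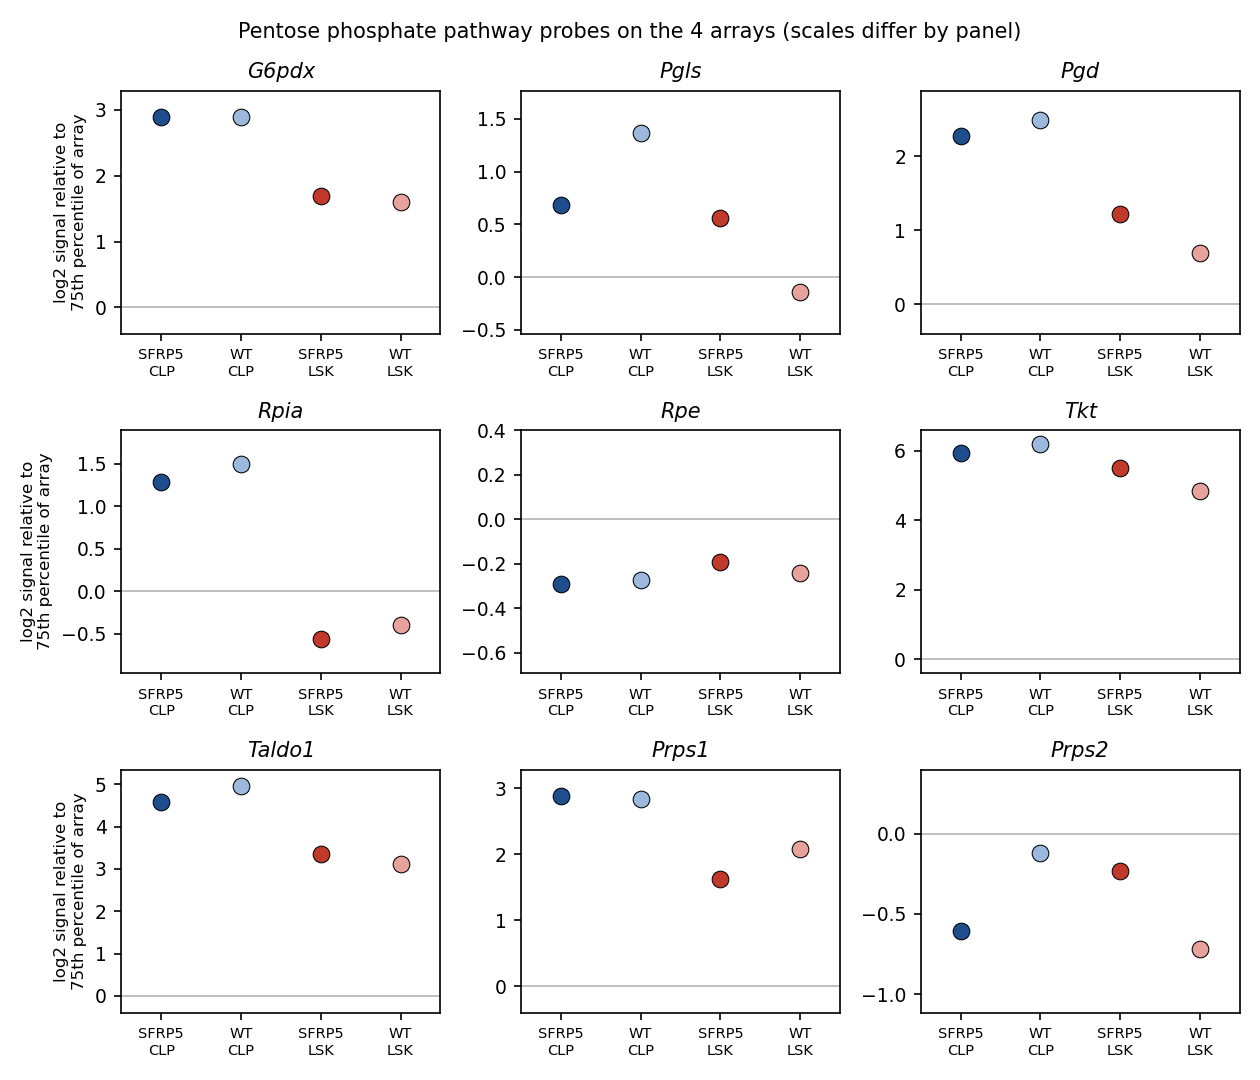
Level of each of the 9 members on the 4 arrays, as log2 signal relative to the 75th percentile of the array (grey line at 0), 1 spot per point and a scale of its own per panel. All members except Rpe and Prps2 have both CLP points above both LSK points, and Rpe is nearly level.

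The comparison of SFRP5 with WT in LSK asks which genes differ with the transgene among stem and multipotent progenitors, and it is the one behind the choice of these genes. No member was 2-fold different, whereas 6.57% of 16127 measured genes passed 2-fold upward and 7.17% downward. The differences of 7 members were above 0, from Rpe at 0.05 to Pgls at 0.69, and 2 below, Rpia at -0.17 and Prps1 at -0.46. Among all measured genes 51.3% were above 0. Beyond the spot error 5 members were higher (Pgls, Tkt, Pgd, Prps2 and Taldo1) and Prps1 lower, against 34.0% of measured genes higher and 26.3% lower. The median over the members was 0.24, against 0.02 over all measured genes. Rpia, Rpe and Prps2 lay below the 75th percentile on both LSK arrays, so they are not among the bright genes that follow. All 8287 measured genes at or above the 75th percentile on their brighter array had a median of 0.18 with 62.4% above 0, and 49.2% of these were higher and 26.5% lower beyond the spot error. Of measured genes, 13.1% had a higher difference than Pgls and 14.8% a higher one than Tkt. The members' median depended on the scaling, at 0.083 with quantile normalization and 0.55 with each array set to its median, where 1 member passed 2-fold.

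Other expression moved with genotype on the same arrays. The list of neutrophil and monocyte markers had 6 of 10 measured members past 2-fold upward in SFRP5 LSK and 0 downward, with a median of 1.40 and a summed relative signal of 85.6 in SFRP5 LSK against 57.8 in WT LSK. Of the 11 on the array Ltf alone was not above background in WT LSK. The list ran from Camp at -0.30 to Ngp at 3.84. Xist, the RNA of the inactive X chromosome, was above background on both SFRP5 arrays and on neither WT array. The 4 listed genes of the Y chromosome (Uty, Kdm5d, Eif2s3y, Ddx3y) were lower in SFRP5 than in WT in both sorts, from -0.82 to -2.26. These Y-linked genes were still well above background on both SFRP5 arrays, so each of those arrays carried Xist and Y-linked signal together. Genotype and sex-linked expression cannot be told apart on these arrays. The 3 members on the X chromosome differed by 0.10 (G6pdx), -0.46 (Prps1) and 0.48 (Prps2) in LSK. The median genotype difference in LSK over bright X-linked genes was 0.14, against 0.18 over bright autosomal genes. In CLP these medians were 0.00 over X-linked and -0.03 over autosomal genes. Immediate early genes, which cells induce within a short time of handling or stimulation, were past 2-fold upward in SFRP5 for 10 of 13 in LSK and 8 of 13 in CLP, with medians of 1.33 in LSK and 1.13 in CLP. Over all measured genes 6.57% in LSK and 4.25% in CLP were past 2-fold upward. In LSK the immediate early genes ran from Atf3 at 0.38 and Junb at 0.63 to Klf4 at 2.50 and Fosb at 3.0. The part of these differences in the members' values was not tested.

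In CLP the same genotype comparison ran the other way. No member reached 2-fold, against 4.25% of 15943 measured genes higher and 4.3% lower. The differences of 8 of 9 members were below 0, from G6pdx at -0.0042 to Pgls at -0.68, and only Prps1 was above it, at 0.05. Among measured genes 46.6% were above 0, as were 46.5% of bright ones. The count of members below 0 was 7 under quantile normalization, cyclic loess and normexp. It was 6 with each array's median and in the authors' signal table. Beyond the spot error 6 members were lower (Pgls, Prps2, Taldo1, Tkt, Pgd and Rpia) and 0 higher, against 28.3% of measured genes lower and 23.8% higher, or 36.9% and 29.9% of bright genes. The median was -0.22, against -0.03 over bright genes. Erythroid markers were lower on the same SFRP5 array, all 12 of 12 measured below 0 with a median of -0.62 and 0 at 2-fold, and a summed relative signal of 486.2 in SFRP5 CLP against 795.8 in WT CLP. Their part in the members' values was not tested.

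The genotype difference in LSK minus that in CLP holds the LSK values behind the choice of the pathway, which favour a positive sign, so it is given as a description that supports nothing by itself. It was above 0 for 8 of 9 members, against 52.8% of 15182 genes measured on all 4 arrays and 58.9% of the bright ones. Prps1 was the exception, at -0.51. The median was 0.60, against 0.05 over all genes measured on the 4 arrays and 0.17 over bright genes. Pgls at 1.38 was the only member over 2-fold, where 22.6% of genes were. The sign of the genotype difference was opposite in the sorts for 8 of 9 members and for 53.0% of genes, and for Pgls, Pgd, Tkt, Taldo1 and Prps2 both differences were beyond the spot error. These values depended on the scaling. The count above 0 was 7 of 9 under quantile normalization, cyclic loess and normexp and 5 of 9 in the authors' signal table. Quantile normalization gave a median of 0.28, cyclic loess 0.31, the authors' deposited signals 0.38, normexp 0.47 and scaling to each array's median 0.90. Opposite signs were seen for 6 of 9 with normexp and 7 of 9 with each array's median. With 1 array for each group the difference between sorts could not be tested.

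**Figure D2:**
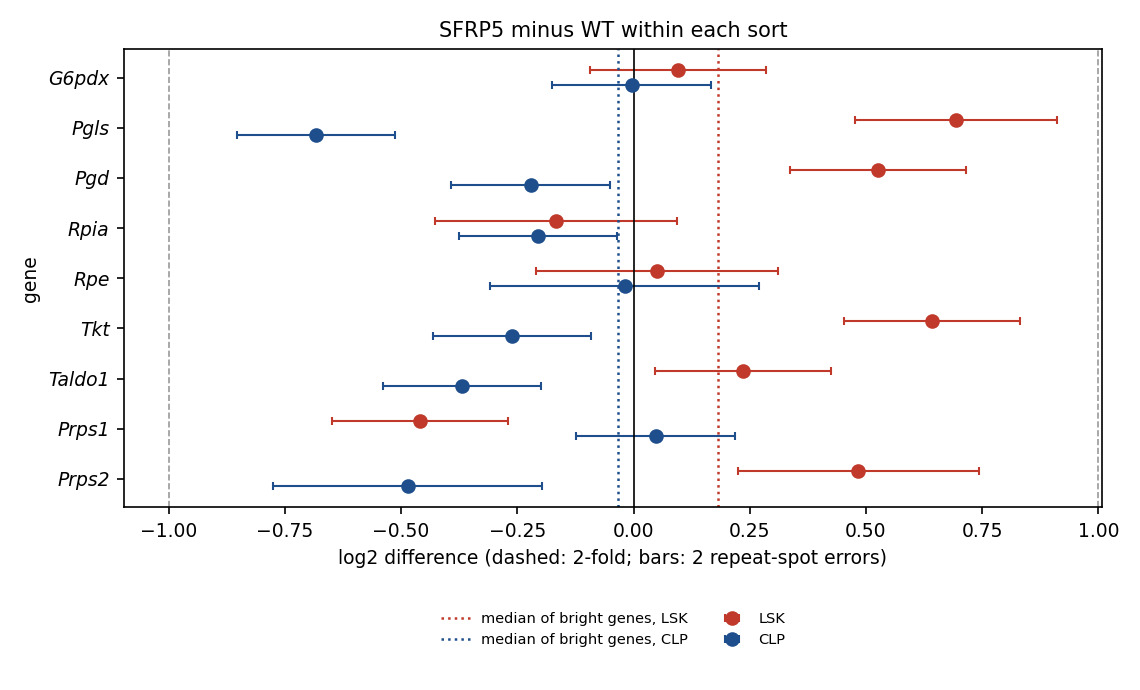
SFRP5 minus WT for each member in LSK (red) and CLP (blue), in log2 units, with bars of 2 repeat-spot errors, dashed lines at 2-fold and dotted lines at the median of bright genes. Pgls, Pgd, Tkt, Taldo1 and Prps2 lie right of 0 in LSK and left of it in CLP, and no member reaches 2-fold.

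Between the sorts the members differed more. In SFRP5, 5 of 9 were at least 2-fold higher in CLP than in LSK (Rpia, Prps1, Taldo1, G6pdx and Pgd) and 0 lower, against 11.5% of 15713 measured genes higher and 11.0% lower, or 13.3% and 9.69% of bright genes. Their median was 1.04, against 0.02 over measured and 0.11 over bright genes, and 7 of 9 were above 0, as were 51.5% of measured and 56.4% of bright genes. With quantile normalization 3 of 9 passed 2-fold in SFRP5. In WT, 6 of 9 were at least 2-fold higher (Rpia, Taldo1, Pgd, Pgls, Tkt and G6pdx) and 0 lower, against 17.8% of 16019 measured genes higher and 14.3% lower, or 25.6% and 11.5% of bright genes. Their median was 1.35, against 0.02 over measured and 0.32 over bright genes, and 8 of 9 were above 0, as were 50.6% of measured and 60.6% of bright genes. G6pdx, Pgd, Rpia and Taldo1 passed 2-fold in both genotypes, as did 7.01% of genes. These 4 became 1 with quantile normalization (Rpia), 2 with cyclic loess and in the authors' signal table (Rpia and Taldo1), 3 with normexp (without Pgd) and 5 with each array set to its median (with Prps1). The SFRP5 and WT values come from different arrays, but each shares its arrays with the genotype comparisons. Prps1 passed 2-fold in SFRP5 alone, at 1.27 against 0.76 in WT. Tkt, at 0.44 in SFRP5 against 1.35 in WT, and Pgls, at 0.13 in SFRP5 against 1.51 in WT, passed it in WT alone, and the difference between genotypes was not tested.

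**Figure D3:**
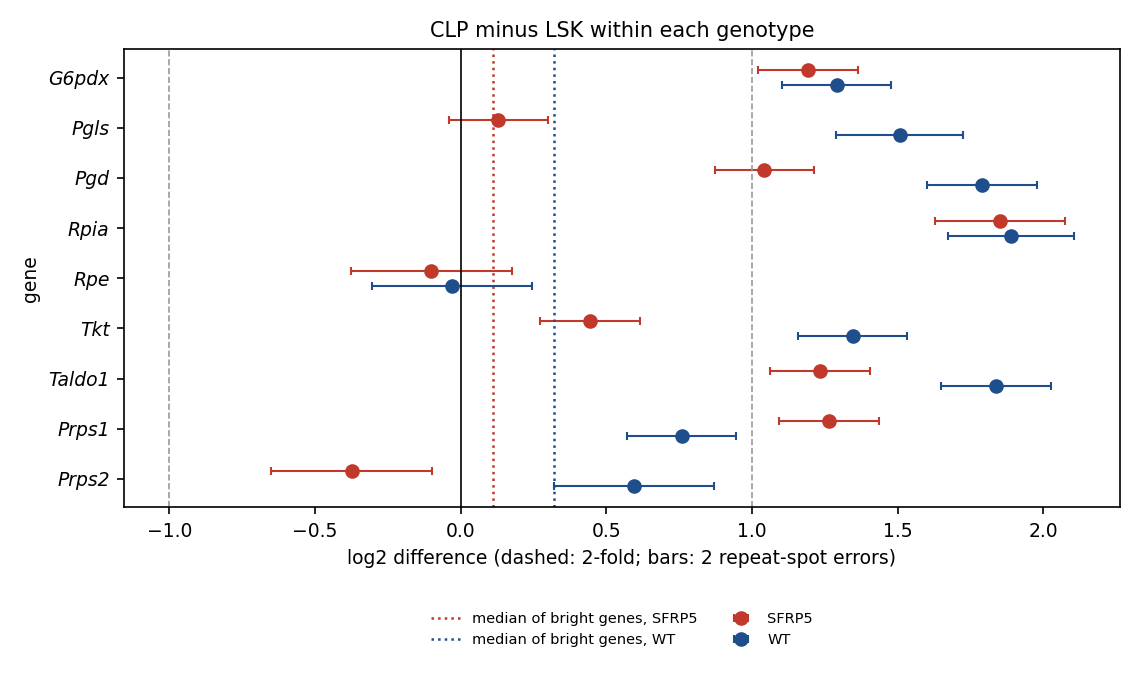
CLP minus LSK for each member in SFRP5 (red) and WT (blue), in log2 units, with bars of 2 repeat-spot errors, dashed lines at 2-fold and dotted lines at the median of bright genes. G6pdx, Pgd, Rpia and Taldo1 pass 2-fold in both genotypes, Rpe lies near 0 and Prps2 lies on opposite sides of it.

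The sorts carried their gate markers. Il7r, the IL-7 receptor chain used in the lymphoid gate, stood at 3.13 in SFRP5 CLP and 2.52 in WT CLP, and at 0.89 in SFRP5 LSK and -0.51 in WT LSK. Kit and Ly6a (Sca-1) were at least 2-fold lower in CLP than in LSK in both genotypes. Flt3, which is not among the markers of the gates described above, was also lower in CLP, at -2.78 in SFRP5 and -2.71 in WT. The array's probe for Sfrp5 itself differed by -0.08 in LSK and 0.02 in CLP between genotypes, and no source used here says whether that probe reads the transgene. Genes of other lineages were also much higher in CLP than in LSK, where 11.5% of measured genes in SFRP5 and 17.8% in WT were at least 2-fold higher. Erythroid markers were at least 2-fold higher for 10 of 11 measured in each genotype, with medians of 3.58 in SFRP5 and 4.06 in WT, and all 12 were above background on both CLP arrays. Their summed relative signal was 486.2 in SFRP5 CLP and 795.8 in WT CLP, against 50.7 in SFRP5 LSK and 56.2 in WT LSK. Neutrophil and monocyte markers were at least 2-fold higher for 7 of 11 in SFRP5, with 1 lower, and for 9 of 10 in WT, with 0 lower. Their sums were 338.6 in SFRP5 CLP and 312.2 in WT CLP, against 85.6 in SFRP5 LSK and 57.8 in WT LSK. B lineage markers were at least 2-fold higher for 9 of 9 in both genotypes, with sums of 110.2 in SFRP5 CLP and 91.3 in WT CLP, against 7.50 in SFRP5 LSK and 5.39 in WT LSK. In a bulk sample fewer cells of a type and less RNA per cell cannot be told apart. The part of these lineages in the members' higher CLP values was not tested.

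Enzymes related to the members by sequence or by substrate differed less uniformly between sorts than the members did. Between genotypes in LSK, 7 of 10 measured of the 14 were above 0, with a median of 0.37, against 7 of 9 members and a median of 0.24. At least 2-fold higher in SFRP5 LSK than in WT LSK was 1, with 0 lower. That gene was G6pd2, a retrogene copy of G6pdx, at 1.18, whose probe may also take up the G6pdx transcript. H6pd, the dehydrogenase of the endoplasmic reticulum, differed by 0.63 in LSK and 1.07 in CLP and was higher in SFRP5 in both sorts. Between sorts H6pd was lower in CLP, at -0.88 in SFRP5 and -1.32 in WT, opposite to G6pdx. In LSK the remaining SFRP5 minus WT values were 0.76 for Pgm1, 0.71 for Pgm2, 0.49 for Prpsap1, 0.25 for Dera, 0.11 for Prpsap2, -0.09 for Shpk, -0.30 for Idnk and -0.41 for Rbks. Prpsap1 and Prpsap2 encode proteins that associate with the PRPP synthetases, and Pgm1 and Pgm2 are phosphoglucomutases. Tktl1 and Tktl2, transketolase-like genes, were not above background on any array, Prps1l1 was above it only in SFRP5 CLP and Rgn only in SFRP5 LSK and WT CLP. In CLP 1 of 9 measured was at least 2-fold higher in SFRP5 and 0 lower, with a median of 0.01. Between sorts 1 of 9 in SFRP5 and 4 of 10 in WT were at least 2-fold higher in CLP, and 1 in SFRP5 and 2 in WT lower. Of measured genes 11.5% in SFRP5 and 17.8% in WT were higher, and 11.0% in SFRP5 and 14.3% in WT lower.

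Genes that feed or regulate the pathway had 7 of 10 above 0 in SFRP5 LSK, near the 62.4% of bright genes, and 0 at 2-fold. Their median was 0.61, against 0.18 over bright genes. The hexokinases that make glucose 6-phosphate gave 0.79 for Hk3, 0.62 for Hk1 and -0.38 for Hk2 in LSK. Gpi1, the glycolytic isomerase that competes for that substrate, gave 0.60, and Tigar, a phosphatase that slows glycolysis, gave 0.59. Keap1, which holds NRF2 back, was at 0.99, while Nfe2l2 was at -0.03 and Bach1, a repressor at the same element, at -0.35. Trp53 and Myc were both at 0.72. In CLP the list had a median of 0.17, with 8 of 10 above 0, against 46.5% of bright genes, and 0 at 2-fold. Keap1 was at -0.45 and Tigar highest at 0.70. Between sorts in SFRP5, 1 of 10 was at least 2-fold higher in CLP (Nfe2l2 at 1.34) and 1 lower (Myc at -1.03), with a median of 0.21. In WT 4 of 10 were higher (Keap1, Hk3, Hk1 and Nfe2l2) and 0 lower, with a median of 0.77. Among bright genes 13.3% in SFRP5 and 25.6% in WT were at least 2-fold higher, and 9.69% in SFRP5 and 11.5% in WT lower.

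Genes linked to other sources of NADPH went both ways between genotypes in LSK. In LSK 1 of 12 measured was at least 2-fold higher in SFRP5 and 1 lower, with a median of 0.00, against 6.57% of measured genes higher and 7.17% lower. Aldh1l1, a folate-linked dehydrogenase, was at 1.49 and Mthfd2l, a mitochondrial enzyme of the folate cycle, at -1.72. Me2 was at 0.76, Nnt at 0.48, Nadk2 at 0.33, Idh2 at 0.30, Mthfd1 at 0.12, Nadk at -0.11, Aldh1l2 at -0.47, Mthfd1l at -0.50, Mthfd2 at -0.58 and Idh1 at -0.76. Me1, the cytosolic malic enzyme, was above background on both SFRP5 arrays and on neither WT array, by at least 10.9-fold in LSK and at least 7.11-fold in CLP. Each bound is against the lowest signal that passed the flag on the WT array. Me3 was not above background on any array. Among those above background on both CLP arrays, Aldh1l1 was highest at 1.63 and Idh1 followed at 0.68 (list median -0.06, 1 of 12 at least 2-fold higher and 0 lower). Between sorts 5 of 13 in SFRP5 and 4 of 12 in WT were at least 2-fold higher in CLP and 2 lower in each. Of measured genes 11.5% in SFRP5 and 17.8% in WT were higher, or 13.3% and 25.6% of bright genes. Lower were 11.0% of measured genes in SFRP5 and 14.3% in WT. The list medians were 0.21 in SFRP5 and 0.10 in WT. Mthfd2 was higher by 2.78 in SFRP5 and 2.29 in WT.

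Antioxidant genes, mainly of the glutathione and thioredoxin systems that draw on NADPH, were, like the members, mostly higher in CLP than in LSK. In SFRP5 4 of 14 measured were at least 2-fold higher in CLP and 1 lower, with a median of 0.59. In WT 9 of 13 were higher and 0 lower, with a median of 1.56 and all 13 above 0. Among bright genes 13.3% in SFRP5 and 25.6% in WT were at least 2-fold higher in CLP, and 9.69% in SFRP5 and 11.5% in WT lower. Gsr, glutathione reductase, was higher in CLP by 2.11 in SFRP5 and 2.09 in WT. For genotype in LSK the median was 0.49, with Txnrd3 at 2.13, Glrx at 1.13, Gclc at -0.62 and Nqo1, a quinone reductase induced by NRF2, at -1.29, so 2 of 13 were at least 2-fold higher and 1 lower. In CLP the median was -0.30, with 10 of 14 below 0 and Nqo1 at -1.12, while 46.5% of bright genes were above 0. Over all measured genes 6.57% were at least 2-fold higher in SFRP5 in LSK and 7.17% lower. Fatty acid and sterol synthesis also use NADPH. Their genes had a median SFRP5 minus WT difference of -0.24 in LSK and -0.05 in CLP. Between sorts the medians were 0.18 in SFRP5 and -0.13 in WT. In LSK 0 of 8 passed 2-fold upward in SFRP5 and 1 downward, and Acaca was at 0.26, Sqle at 0.06 and Fasn, fatty acid synthase, at -1.30.

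Genes of purine, pyrimidine and NAD synthesis, pathways that use PRPP, were higher in CLP for most of the list, though mostly below 2-fold. In SFRP5 11 of 14 were above 0 and 1 at least 2-fold higher, with a median of 0.42. In WT 13 of 14 were above 0 and 1 at least 2-fold higher, with a median of 0.70. Among bright genes 56.4% in SFRP5 and 60.6% in WT were above 0. At least 2-fold higher were 13.3% of them in SFRP5 and 25.6% in WT. Hprt, the X-linked purine salvage enzyme, was higher by 0.74 in SFRP5 and 0.84 in WT. For genotype the medians were 0.04 in LSK and -0.02 in CLP, with Aprt at 1.05, Atic at 0.66, Cad at -0.48 and Gart at -0.87 in LSK.

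**Figure D4:**
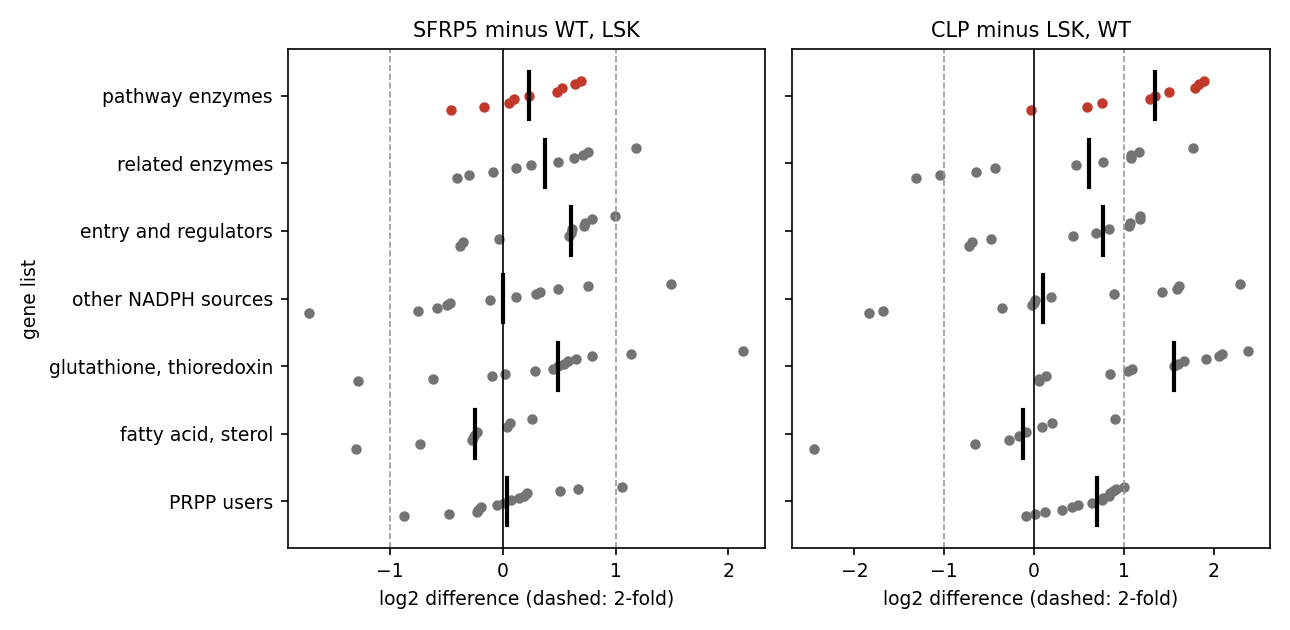
Log2 difference of each measured gene in the pathway (red) and in 6 related lists (grey), for SFRP5 minus WT in LSK (left) and CLP minus LSK in WT (right), with a black bar at each list's median and dashed lines at 2-fold. The pathway enzymes and the glutathione and thioredoxin genes have medians of 1.35 and 1.56 on the right, the highest of the 7 lists.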

How the data were processed

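Per the labels' protocols, 6.1 ng of total RNA from each sort was amplified to cDNA and labelled with Cy3. The deposited scanner files hold 1 intensity for each spot, background-subtracted and detrended by Agilent Feature Extraction 10.10.1.1, on 1 slide with probes annotated on mm9, per the file headers. Each array's values in the authors' deposited signal table are that intensity multiplied by a constant (4.91 to 6.42, computed here), and the deposited ratio table repeats its signals. Outlier-flagged spots were left out, intensities were turned into log2 values, and each array's 75th percentile over 59305 spots was subtracted (Python 3.11.15, pandas 2.3.3). Probe symbols were updated through Entrez IDs in the RefSeq table of GRCm38.p6, which matched 30994 of 33325 probes with a symbol. A gene was represented by its brightest probe on average, and a gene was measured when well above background on both arrays. Groups came from the sample titles. An additive fit of genotype and sort would leave 1 residual degree of freedom and assumes equal genotype differences in both sorts, so it was not run. Alternatives used limma 3.58.1. Normexp was run on the median spot signal, in place of the mean, with an offset of 50. The calculation was tested on simulated data.

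The members and lists were chosen with earlier results of these data known. Named are all members and all genes of the lists of related enzymes, of pathway entry and regulators and of NADPH sources. Also named are the 2 highest and 2 lowest of the other metabolic lists and of the immediate early genes by the LSK genotype difference. The gate markers, Flt3, Sfrp5 and the sex-linked genes are named too, with examples from the marker lists. These examples, Gsr, Hprt and the non-member examples between sorts were chosen after their values were seen. Some genes that this rule names are not reported here.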

Additional observations from a re-analysis of the deposited data

Results flagged for a closer look

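For 8 members the genotype difference had opposite signs in the 2 sorts, and the difference between them was not tested. The genotype difference in LSK minus that in CLP was 1.38 for Pgls, 0.97 for Prps2, 0.90 for Tkt, 0.75 for Pgd and 0.60 for Taldo1, all with both differences beyond the spot error. It was -0.51 for Prps1, whose CLP difference lay within the spot error. It was 0.10 for G6pdx and 0.070 for Rpe, whose genotype differences all lay within it. Among all genes measured on the 4 arrays 53.0% had opposite signs. All of these values hold the LSK genotype difference, on which the pathway was selected, and that choice favours a positive LSK term.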

How the results depend on the processing

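With 1 array for each group no array could be left out of a comparison. No paired analysis was possible because each comparison has 1 pair of arrays, and the additive fit over all 4 was not run. The 4 settings on dim probes, probe choice and outlier spots left every member's value as it was. Under the others, 34 recomputed medians and counts stayed within the spot error or within 1.5 times the count, 18 did not, and no median changed sign. The median of the members for SFRP5 minus WT in LSK was 0.083 with quantile normalization, 0.11 with cyclic loess, 0.55 when each array was set to its median and 0.38 without the X-linked members. That scaling to the median raised the median of all genes by 0.32 and gave 1 member at 2-fold, while 2 members passed 1.5-fold. In CLP the median ran from -0.24 to -0.12, and 1 member, lower, passed 1.5-fold. For CLP minus LSK in SFRP5 the median was 0.90 with quantile normalization, 0.89 with cyclic loess, 0.86 in the authors' table and 0.74 without the X-linked members, and 3 members passed 2-fold with quantile normalization and 3 without the X-linked members. For CLP minus LSK in WT the median was 0.91 with quantile normalization, 0.93 with cyclic loess, 1.72 with each array's median, 0.93 in the authors' table and 1.65 without the X-linked members. The authors' table lowered the median of all genes there, to -0.40, and 26.6% of its 2-fold genes were higher in CLP, against 55.5% here. In LSK 33.4% of 2-fold genes were higher in SFRP5 in that table, against 47.8% here, 59.1% with quantile normalization, 63.4% with cyclic loess, 78.3% with each array's median and 62.8% with normexp. The genotype differences of G6pdx and Rpe in both sorts and of Rpia in LSK changed sign under some scalings, as did CLP minus LSK of Pgls in SFRP5 and of Rpe in WT. That of Rpe ran from -0.44 to 0.35, and that of G6pdx between genotypes in LSK from -0.05 to 0.41. The cause of these shifts was not tested. All members were well above background, and 1 array per group gives no estimate of precision between mice.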

Other observations

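Among cell type lists, the median SFRP5 minus WT difference was 0.12 in LSK and 0.38 in CLP over Kit, Ly6a, Il7r and Flt3. Of these genes only Il7r passed 2-fold between genotypes in LSK, upward in SFRP5 at 1.40. The median difference was -0.08 in LSK and 0.36 in CLP over stem cell markers. It was -0.21 in LSK and 0.29 in CLP over B lineage markers, and 0.06 and -0.17 over megakaryocyte markers. It was 0.14 in LSK and -0.43 in CLP over mast cell and basophil markers, and -0.26 and 0.03 over T and NK lineage markers. Between sorts, stem cell markers were at least 2-fold lower in CLP for 4 of 7 measured in SFRP5 and 4 of 6 in WT, and 0 were higher. Over all measured genes 11.0% in SFRP5 and 14.3% in WT were that much lower, and 11.5% in SFRP5 and 17.8% in WT higher. Mast cell and basophil markers were at least 2-fold higher in CLP for 3 of 5 measured in each genotype. At least 2-fold lower were 1 of 5 in SFRP5 and 2 of 5 in WT. The whole list had summed relative signals of 37.9 in SFRP5 CLP and 53.8 in WT CLP, against 4.83 in SFRP5 LSK and 4.59 in WT LSK.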
